A study of Mus musculus with 12 samples.

Results

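The 10 genes described here are mesothelium genes: Msln, Upk3b, Upk1b, Wt1, Lrrn4, Gpm6a, Muc16 and the keratins Krt8, Krt18 and Krt19. They were taken by symbol from a table of RNA-seq read counts of epididymal white adipose tissue (eWAT), which holds 49315 genes, and each of the 10 symbols matched 1 row. All 10 were counted in every library, with 53 reads as the lowest count of any of them, and all 10 were among the 18702 genes that passed the filter on low counts. The rule takes the genes by name and uses no measured value, but the list was drawn up with earlier results of these data known.

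The study asked whether methotrexate (MTX), an anti-inflammatory antifolate drug, acts on obese mice through the microRNA cluster Mir181a2b2. RNA was sequenced from 12 eWAT libraries, 3 in each of 4 groups, and every mouse was fed a high-fat diet (HFD, 60% fat) for 12 weeks. The flox vehicle group held miR-181a2b2flox/flox mice injected weekly i.p. with vehicle, and the flox MTX group held mice of the same genotype given MTX at 1 mg/kg. The KO vehicle and KO MTX groups held miR-181a2b2-/- mice, which lack both microRNAs of the cluster in all tissues, with the same injections. The flox mice carry the loxP-flanked allele without a Cre driver and served as controls, so no group had an unmodified locus or a lean diet. Mice were male and age-matched according to the methods, and their age was not given in the sources used here. The labels number the libraries of a group as separate samples without saying that each came from its own mouse, so the p-values below measure the spread between libraries. Replicate numbers are those of the labels, which run from 1 to 4 with gaps.

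The mesothelium is the sheet of flattened cells of mesodermal origin that covers the serous cavities and the organs in them, and it coats the surface of visceral fat depots such as eWAT. Its cells secrete lubricating fluid, carry long microvilli and express a mixture of mesenchymal and epithelial genes, including simple-epithelium keratins. Mesothelin (Msln) is a surface glycoprotein that binds the membrane mucin Muc16, the carrier of the CA125 antigen. Wt1 is a zinc-finger transcription factor that marks mesothelium from the embryo onward. In a bulk tissue library, fewer cells of a type and less RNA per cell cannot be told apart, which holds for every value below.

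Libraries held 19495310 to 23976469 counts, and values are given in CPM, counts scaled to a common library total with TMM factors, which correct for differences in library composition. The deleted precursors could not be checked: Mir181a-2 had 2 reads in 1 library, flox MTX replicate 4, and Mir181b-2 had 0 reads in all 12. Markers of adipocytes were abundant throughout, with a summed level of 11 genes from 10205 to 51234 CPM and Fabp4, a fatty acid carrier, at 5180 CPM or more in every library. The 3 flox vehicle libraries stood apart from the others. The summed level of 19 epididymis genes was 4602, 11935 and 1490 CPM in replicates 1, 3 and 4 of flox vehicle, against 497 CPM in flox MTX replicate 1 and 2.10 to 25.3 CPM in the other 8. Crisp1, the most abundant of these genes and a secreted protein of the epididymal duct, reached 9201 CPM in flox vehicle and 8.49 CPM at most in KO MTX. Results that rest on flox vehicle are therefore given with the values of these lists beside them, and comparisons that do not use that group are also given without it.

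Promoter sequences are shown for 4 genes, Krt8 and Krt18 because they moved together and by the most, and Upk3b and Lrrn4 because they stand for the genes that moved the other way. The RefSeq promoter table (GRCm38.p6) had an entry for 6 of the 10 genes, namely Krt8, Krt18, Upk3b, Lrrn4, Gpm6a and Muc16. Msln, Upk1b, Wt1 and Krt19 had none. The 250 bases before the annotated start were searched on both strands for 7 motifs. Core promoter elements were searched as TATAAA, the box of that name, as GGGCGG, the box bound by Sp factors, and as the CCAAT box. Sites of transcription factors were searched as TGANTCA for Fos and Jun dimers and as GCGGGGGCG for Wt1. With the sequences in view, the search was extended to CACCTG, an E-box bound by repressors such as Snai1, and to GGAATG, the site of TEAD factors. Matches are in capitals, and none of them overlapped another motif.
Krt8, chr15:102004343-102004592, minus strand: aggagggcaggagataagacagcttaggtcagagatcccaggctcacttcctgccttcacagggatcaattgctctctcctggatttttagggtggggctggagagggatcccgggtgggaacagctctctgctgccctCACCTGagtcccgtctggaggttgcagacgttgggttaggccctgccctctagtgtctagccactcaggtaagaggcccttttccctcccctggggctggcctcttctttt
Krt18, chr15:102027966-102028215, plus strand: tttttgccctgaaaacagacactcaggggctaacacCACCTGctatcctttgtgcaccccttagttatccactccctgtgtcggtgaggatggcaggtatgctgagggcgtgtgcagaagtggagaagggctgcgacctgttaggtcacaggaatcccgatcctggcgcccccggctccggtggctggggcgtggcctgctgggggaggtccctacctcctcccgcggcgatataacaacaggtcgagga
Upk3b, chr5:136038246-136038495, plus strand: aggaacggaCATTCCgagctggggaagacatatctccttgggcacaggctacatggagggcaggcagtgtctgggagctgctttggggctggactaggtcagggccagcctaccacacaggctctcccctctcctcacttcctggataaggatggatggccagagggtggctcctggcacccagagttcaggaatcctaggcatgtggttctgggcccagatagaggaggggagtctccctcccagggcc
Lrrn4, chr2:132880863-132881112, minus strand: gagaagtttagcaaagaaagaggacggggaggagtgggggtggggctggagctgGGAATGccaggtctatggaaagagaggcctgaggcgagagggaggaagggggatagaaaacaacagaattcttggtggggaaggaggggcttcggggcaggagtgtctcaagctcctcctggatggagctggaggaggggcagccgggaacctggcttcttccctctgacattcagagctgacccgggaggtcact

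Krt8 and Krt18 lie next to each other on chromosome 15 with their starts 23874 bases apart and read in opposite directions. Each held 1 match to CACCTG and to no other motif searched, from 111 to 106 bases before the start in Krt8 and from 214 to 209 bases before it in Krt18. Of all 32851 promoters in the table, 17.2% held this motif in a window of the same length. Upk3b held CATTCC, the reverse complement of GGAATG, from 241 to 236 bases before its start, and Lrrn4 held GGAATG from 196 to 191 bases before its start. The share over all promoters was 12.6%. Gpm6a, with 2 promoters in the table, held GGAATG 125 to 120 bases before the start of the more distant of them and TTTATA, the reverse complement of TATAAA, 211 to 206 bases before the other, and the shares were again 12.6% and, for TATAAA, 12.4%. The Muc16 window held none of the 7 motifs. GGGCGG was in 32.7%, CCAAT in 33.8%, TGANTCA in 6.75% and GCGGGGGCG in 2.57% of all promoters, and none of the 4 occurred in the members' windows. A match describes letters and is not a bound site. All starts in this search are those of the RefSeq table. The gene models behind the gene coordinates below start Krt8 at base 102004482, inside its window. The Krt8 match therefore lies within that gene model.

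Between genes, levels can be set side by side only per length, here as CPM per kb of annotated exon, which understates genes whose long annotated exons are not all used. By the median over 12 libraries, Upk3b had the highest level at 16.1 CPM per kb. It was followed by Msln at 12.0, Krt19 at 11.01, Upk1b at 9.996, Krt18 at 8.23, Krt8 at 7.62 and Gpm6a at 7.22 CPM per kb. Lrrn4 at 4.24, Wt1 at 2.85 and Muc16 at 0.241 CPM per kb were the lowest, and Muc16 has the longest exons of the 10 genes at 26350 bases. The keratins held another place in flox vehicle, where the median was 81.6 CPM per kb for Krt8 and 89.7 for Krt18, against 9.35 for Upk3b. In KO MTX the medians of Krt8 and Krt18 were 1.49 and 2.85 CPM per kb, below the 16.2 of Upk3b.

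Upk3b, a membrane protein of the uroplakin family and a marker of mesothelium, is encoded on chromosome 5 (136038496 to 136046487, plus strand, GRCm38). Its level was 33.0, 24.6 and 49.9 CPM in replicates 1, 3 and 4 of flox vehicle, and 45.1, 68.1 and 56.3 CPM in replicates 1, 2 and 3 of KO vehicle. It was 93.5, 159 and 149 CPM in replicates 1, 2 and 4 of flox MTX, and 43.2, 97.3 and 57.3 CPM in replicates 2, 3 and 4 of KO MTX. Every flox MTX library lay above every vehicle library of either genotype, while KO MTX overlapped with all 3 other groups. The group means were 35.8 ± 12.9 CPM in flox vehicle, 56.5 ± 11.5 in KO vehicle, 134 ± 35.3 in flox MTX and 65.9 ± 28.1 in KO MTX (SD, n = 3).

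Msln is encoded on chromosome 17 (25748613 to 25754378, minus strand). Its levels, in the same order of replicates within each group here and below, were 16.3, 18.1 and 34.4 CPM in flox vehicle, 34.9, 45.1 and 56.2 CPM in KO vehicle, 38.9, 124 and 73.2 CPM in flox MTX and 25.6, 50.7 and 30.0 CPM in KO MTX. The highest flox vehicle library was below the lowest KO vehicle and the lowest flox MTX library, and all other pairs of groups overlapped. The highest Msln library, flox MTX replicate 2, held 7.61 times the level of the lowest, flox vehicle replicate 1. Muc16, the binding partner of mesothelin, is encoded on chromosome 9 (18495455 to 18674530, minus strand). It had 5.99, 2.08 and 6.002 CPM in flox vehicle, 4.38, 6.69 and 7.03 CPM in KO vehicle, 9.68, 26.8 and 21.9 CPM in flox MTX and 5.61, 11.4 and 5.59 CPM in KO MTX. Flox MTX lay above both vehicle groups for Muc16, and the other 3 groups overlapped with each other.

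Upk1b, a tetraspanin that pairs with uroplakin III proteins at the surface of the bladder, is on chromosome 16 (38773184 to 38800328, minus strand). It had 14.1, 7.47 and 21.2 CPM in flox vehicle, 15.7, 27.5 and 20.6 CPM in KO vehicle, 28.6, 53.9 and 34.8 CPM in flox MTX and 14.1, 30.9 and 13.5 CPM in KO MTX. Flox MTX again lay above both vehicle groups, by a narrow margin over KO vehicle replicate 2, and KO MTX replicate 3 reached into its range. Wt1 is on chromosome 2 (105126529 to 105173616, plus strand) and had 13.8, 5.23 and 21.9 CPM in flox vehicle, 14.3, 19.3 and 16.4 CPM in KO vehicle, 18.8, 53.2 and 28.2 CPM in flox MTX and 13.2, 27.3 and 14.9 CPM in KO MTX. For Wt1 every pair of the 4 groups overlapped, and the mean of flox MTX, 33.4 ± 17.7 CPM (SD, n = 3), carried the widest spread of the 4, with replicate 2 far above the other libraries.

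Lrrn4, a leucine-rich repeat membrane protein known from neurons, is also on chromosome 2 (132868305 to 132880891, minus strand). It had 8.90, 5.55 and 11.5 CPM in flox vehicle, 10.2, 18.0 and 17.4 CPM in KO vehicle, 21.6, 41.4 and 25.6 CPM in flox MTX and 11.6, 26.5 and 14.1 CPM in KO MTX. Gpm6a, a membrane glycoprotein of the proteolipid family known from neurites, is on chromosome 8 (54954843 to 55060871, plus strand). It had 8.29, 8.69 and 19.2 CPM in flox vehicle, 20.4, 29.5 and 24.6 CPM in KO vehicle, 32.6, 44.3 and 48.4 CPM in flox MTX and 20.1, 40.6 and 21.9 CPM in KO MTX. Flox MTX lay above both vehicle groups for both genes, and for Gpm6a flox vehicle also lay below each of the other 3 groups.

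Krt8 and Krt18 encode the keratins that pair into the intermediate filaments of simple epithelia, including the mesothelium, and Krt8 lies at 101996698 to 102004482 and Krt18 at 102028180 to 102032027 of chromosome 15. Krt8 had 160, 278 and 87.9 CPM in flox vehicle, 15.9, 19.1 and 6.09 CPM in KO vehicle, 23.8, 13.9 and 8.19 CPM in flox MTX and 2.91, 8.88 and 2.45 CPM in KO MTX. Krt18 had 129, 294 and 68.1 CPM in flox vehicle, 9.22, 14.4 and 3.80 CPM in KO vehicle, 18.4, 17.8 and 5.31 CPM in flox MTX and 4.09, 7.15 and 2.45 CPM in KO MTX. The 3 flox vehicle libraries were far above the other 9 for both genes, and those 9 overlapped between groups. The highest library held 114 times the Krt8 level and 120 times the Krt18 level of the lowest, while no member outside these 2 genes spanned more than 12.9 times. Krt19, a keratin of ducts and other simple epithelia on chromosome 11 (100140810 to 100148665, minus strand), had 28.2, 25.6 and 27.7 CPM in flox vehicle, 16.6, 23.4 and 17.7 CPM in KO vehicle, 20.5, 24.04 and 20.4 CPM in flox MTX and 13.3, 19.2 and 10.4 CPM in KO MTX. Krt19 was the steadiest member, with the highest library at 2.70 times the lowest. Flox vehicle lay above the other 3 groups for it, and KO MTX lay below both flox groups.

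**Figure D1:**
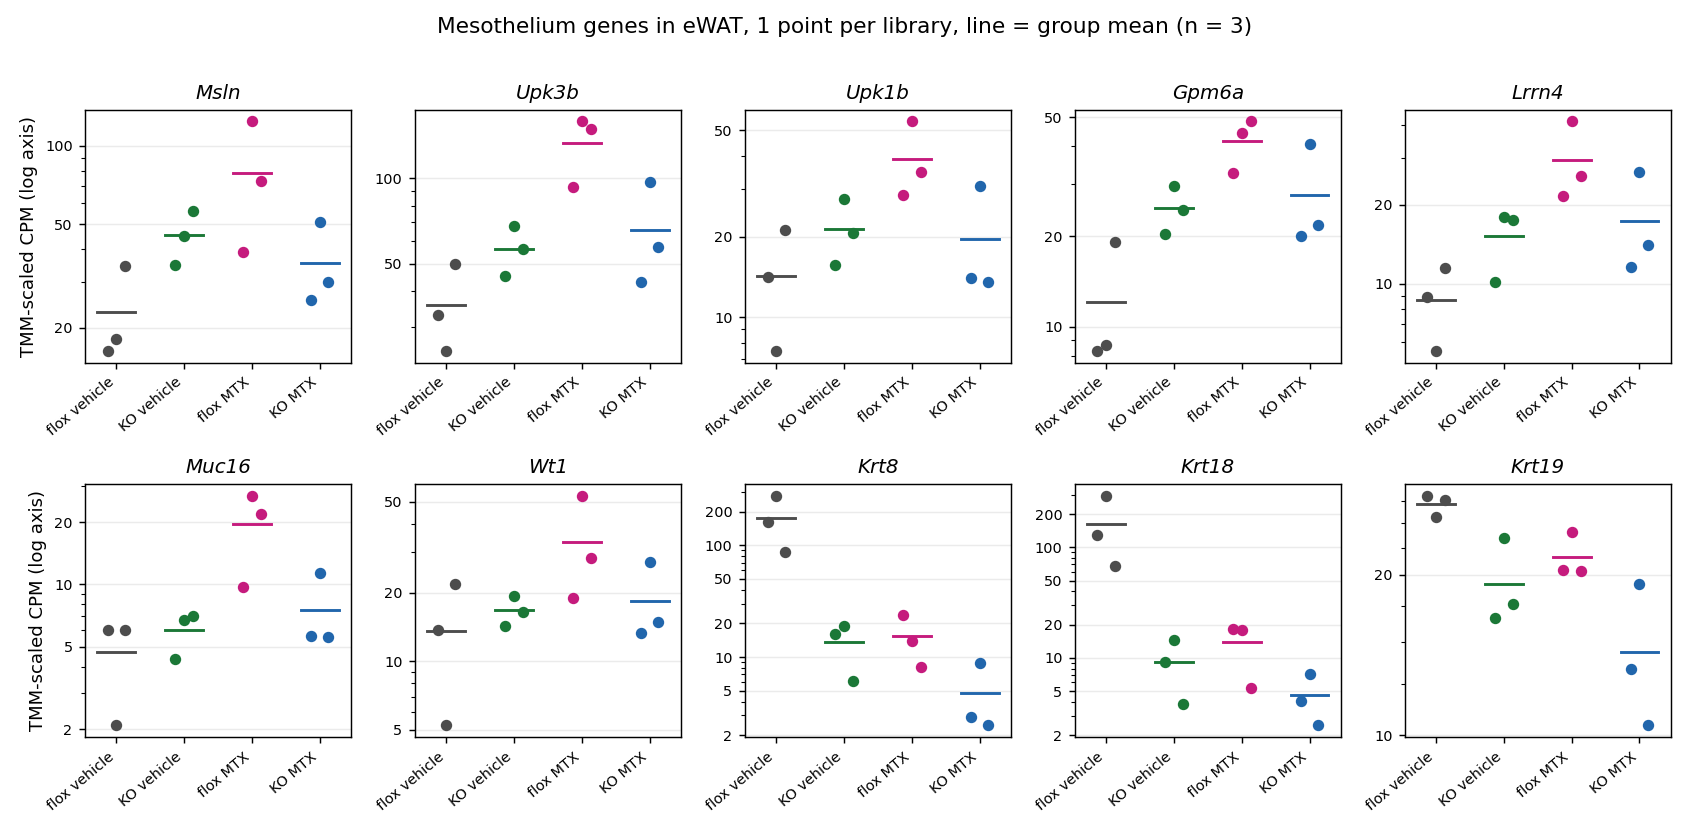
TMM-scaled CPM on a log axis of each of the 10 mesothelium genes in the 4 groups, with 1 point per library and a line at the group mean (n = 3). Flox MTX holds the highest mean of the 7 genes outside the keratins, for example 134 CPM for Upk3b, and flox vehicle that of the keratins, for example 175 CPM for Krt8.

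Set out by group mean, the 7 genes outside the keratins shared the top of the order and its bottom. Flox MTX had the highest mean and flox vehicle the lowest for each of the 7, with KO vehicle and KO MTX between them. Their summed level was 112 ± 47.3 CPM in flox vehicle, 186 ± 36.3 in KO vehicle, 192 ± 81.4 in KO MTX and 376 ± 129 in flox MTX (SD, n = 3). By library the sum was 100, 71.7 and 164 CPM in flox vehicle, 145, 214 and 199 CPM in KO vehicle, 244, 502 and 381 CPM in flox MTX and 133, 285 and 157 CPM in KO MTX. The middle of this order, KO vehicle and KO MTX, did not differ beyond the spread of either group. For Krt8, Krt18 and Krt19 flox vehicle had the highest mean and KO MTX the lowest, and KO vehicle and flox MTX overlapped in each of the 3 genes.

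The 7 genes also moved together from library to library within the groups. KO MTX replicate 3 was the highest library of its group for all 10 members, and flox MTX replicate 2 was the highest of its group for 6 of the 7, Gpm6a being highest in replicate 4. Flox vehicle replicate 4 was the highest of its group for all 7, and KO vehicle replicate 1 and flox MTX replicate 1 were the lowest of theirs for all 7. Over the 12 libraries, Pearson's r of log2-CPM between pairs of the 7 genes ran from 0.816 to 0.966 over 21 pairs, with a median of 0.915. These correlations describe genes measured in the same libraries, which share depth and tissue composition, and they include the differences between groups.

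The makeup of the summed level changed less than its size. Upk3b gave 28.4% to 39.1% of the sum of the 7 genes and Msln 16.0% to 28.3%, and Muc16 gave 2.91% to 5.97%. Lrrn4 had the steadiest share, 6.72% to 9.31%. The ratio of Upk1b to Wt1 lay between 0.912 and 1.52 in all 12 libraries, although Upk1b itself spanned 7.21 times and Wt1 10.2 times. Msln against Upk3b ran from 0.416 in flox MTX replicate 1 to 0.998 in KO vehicle replicate 3.

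Krt8 and Krt18 followed each other and not the 7 genes. Between Krt8 and Krt18 r was 0.983 over 12 libraries and 0.921 over the 9 outside flox vehicle, and the ratio of Krt8 to Krt18 stayed between 0.713 and 1.73. With each of the 7 genes, Krt8 gave r of -0.638 to -0.326 and Krt18 r of -0.660 to -0.347 over 12 libraries. Over the 9 libraries outside flox vehicle the sign was the other way for both, from 0.265 to 0.588 for Krt8 and 0.365 to 0.663 for Krt18. Krt19 gave r of -0.206 to 0.189 with the 7 genes over 12 libraries and 0.618 to 0.865 over those 9. Within flox vehicle the 2 patterns ran against each other, since replicate 3 was the highest library for Krt8 and Krt18 and the lowest for 5 of the 7 genes, and replicate 4 was the lowest for both keratins and the highest for all 7.

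**Figure D2:**
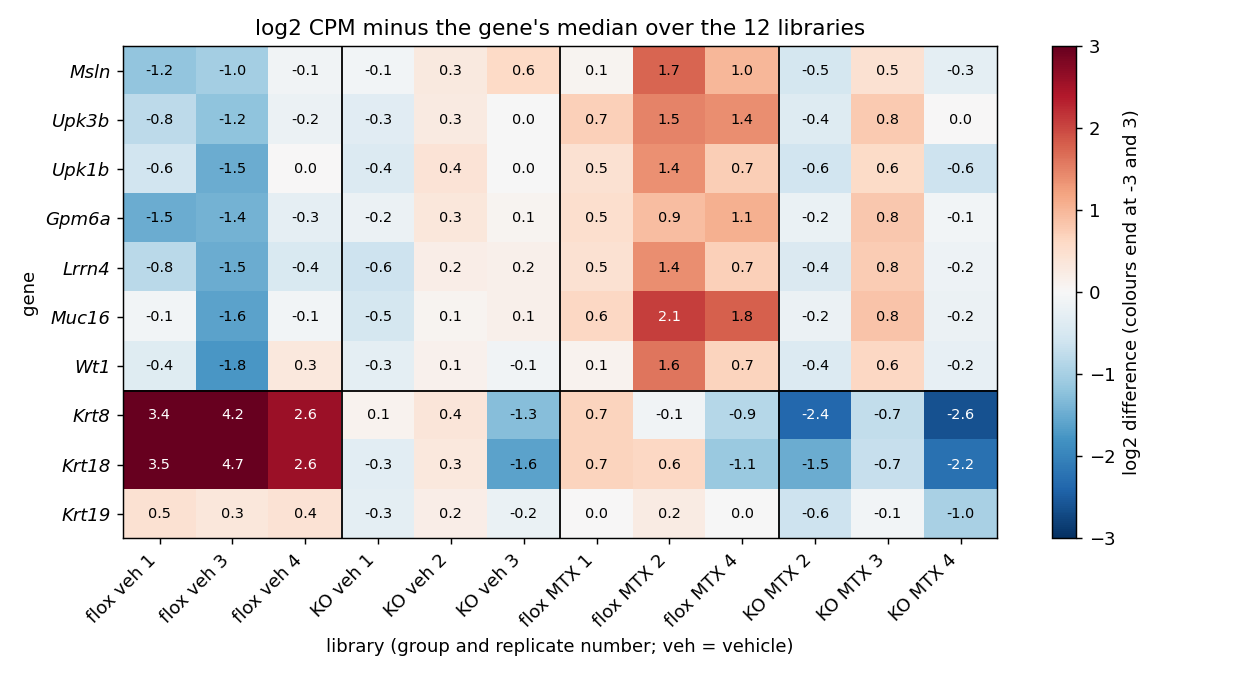
Difference of log2 CPM from each gene's own median over the 12 libraries, with genes in rows, libraries in columns and the groups parted by lines. The 7 upper genes are deepest red in flox MTX replicates 2 and 4, where their sum was 502 and 381 CPM, and Krt8 and Krt18 are deepest red in the 3 flox vehicle libraries.

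Other genes with a like pattern were looked for among all tested genes. Over the 12 libraries, the 10 genes closest to the mean of the 10 standardized members were Dlg2 (r = 0.926), Crb2 (0.920), Stk26 (0.916), Cdon (0.913), Prkg1 (0.906), Gjb5 (0.902), P2ry13 (0.899), Pkhd1l1 (0.896), Carns1 (0.893) and Myrf (0.889). Because the keratins moved apart from the rest, the search was also run for the 7 genes and for the keratin pair, a split made after the values were seen. Closest to the 7 were Pkhd1l1 (r = 0.976), Myrf (0.975), Tmem151a (0.975), Ptgis (0.968) and Nkain4 (0.964), of which Pkhd1l1 and Nkain4 are on a wider list of mesothelium genes. Closest to Krt8 and Krt18 were Epcam (r = 0.990), an adhesion molecule of epithelia, Stard10 (0.988) and Cldn3 (0.982), a tight-junction protein. These are descriptions over 12 libraries that share their depth and composition.

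The effect of MTX in flox mice gave the clearest change of the members. All 7 genes outside the keratins rose and Krt8 and Krt18 fell, so that 9 of the 10 were called (fold of at least 1.5 and adjusted p below 0.1, edgeR's quasi-likelihood test with Benjamini-Hochberg adjustment over 18702 genes). Of all tested genes 24.2% were called, 8.09% as higher and 16.1% as lower. The median log2 fold change of the 10 members was 1.62, against 0.05 over all genes. For 9 of the 10 the groups did not overlap, which held for 28.3% of all genes, and a two-sided exact permutation test of 3 against 3 libraries then gave p = 0.1, the smallest it can give.

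Upk3b rose 3.74-fold with MTX in flox mice (log2 fold change 1.90 ± 0.35 SE, edgeR adjusted p = 0.00656). Muc16 had the largest fold of the 7, 4.16-fold (2.05 ± 0.49, adjusted p = 0.0167). Gpm6a rose 3.47-fold (1.79 ± 0.36, adjusted p = 0.00943), Msln 3.44-fold (1.78 ± 0.43, adjusted p = 0.0186), Lrrn4 3.42-fold (1.78 ± 0.39, adjusted p = 0.0131) and Upk1b 2.75-fold (1.46 ± 0.43, adjusted p = 0.0378). The intervals of these 6 folds overlapped, so the data do not set an order among them. Wt1 was called with the weakest support, at 2.46-fold (1.30 ± 0.50, adjusted p = 0.0913). Krt8 fell 11.4-fold (log2 fold change -3.51 ± 0.65, adjusted p = 0.00672) and Krt18 11.8-fold (-3.56 ± 0.69, adjusted p = 0.00819), while Krt19 was 1.26-fold lower without passing the test (-0.33 ± 0.21, adjusted p = 0.306).

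The rise did not rest on the library with the highest levels alone. Without flox MTX replicate 2, 6 of the 7 genes were still called, with log2 fold changes from 1.16 for Upk1b to 1.77 for Upk3b, and Wt1 was not (0.80, edgeR adjusted p = 0.262). Without flox vehicle replicate 3, the library with the most epididymis RNA, Upk1b (1.15, adjusted p = 0.134) and Wt1 (0.91, adjusted p = 0.247) lost the call and Upk3b kept it at 1.69. The Wt1 call was also lost without flox vehicle replicate 1, flox MTX replicate 4, KO MTX replicate 4 or any 1 of the 3 KO vehicle libraries, with an adjusted p from 0.105 to 0.178 in these 6 fits.

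**Figure D3:**
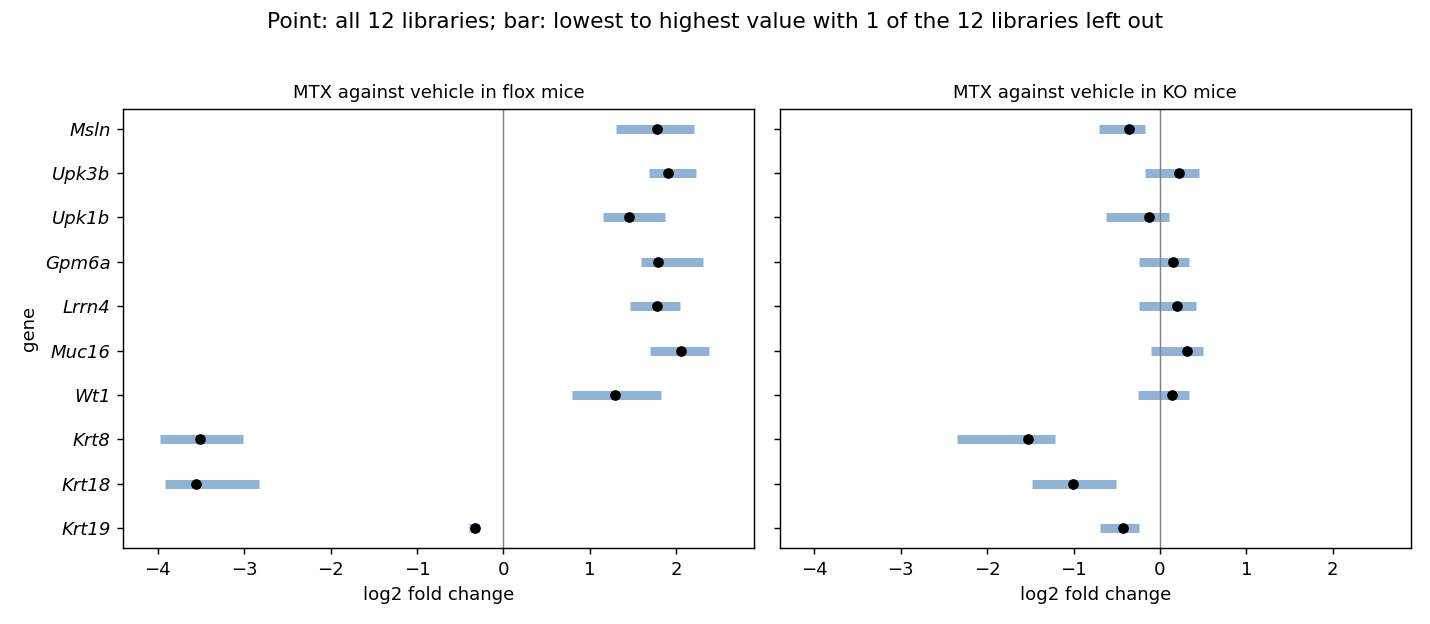
Log2 fold change of MTX against vehicle for each member in flox mice (left) and in KO mice (right), with a point for all 12 libraries and a bar from the lowest to the highest value when 1 library is left out. In flox mice no bar crosses 0, and that of Msln runs from 1.30 to 2.20, while in KO mice the bars of 6 of the 7 genes outside the keratins cross 0.

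The libraries behind this comparison differed in other ways at the same time. The epididymis sum was 1490 to 11935 CPM in flox vehicle, with 10 to 16 of 19 genes over 3 reads, and 5.41 to 497 CPM in flox MTX, with 5 to 14 of 19. Simple epithelium genes, 10 of 10 over 3 reads in each flox vehicle library, summed to 199 to 1092 CPM there and to 4.81 to 55.0 CPM in flox MTX. The 11 testis germ cell genes, led by the protamine Prm2, summed to 208 to 583 CPM in flox vehicle and 0.954 to 2.17 CPM in flox MTX, and 5 Sertoli cell genes to 2.95 to 14.4 and 1.23 to 3.81 CPM. Macrophage genes summed to 549 to 1090 CPM in flox vehicle and 995 to 5126 CPM in flox MTX, stromal progenitor genes to 1501 to 2836 and 2616 to 5194 CPM, endothelial genes to 357 to 523 and 338 to 752 CPM, and adipocyte genes to 18461 to 46577 and 29027 to 51234 CPM. The part of these differences in the members' rise or fall was not tested.

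Krt8 and Krt18 tracked the epithelial lists across flox vehicle libraries. Replicate 3 had the most of each, with 572 CPM of the keratin pair, 1092 CPM of simple epithelium genes and 11935 CPM of epididymis genes, and replicate 4 the least, with 156, 199 and 1490 CPM. Krt8 stood at 1.15 to 2.00 times the level of Epcam in the 3 flox vehicle libraries and at 2.495 to 11.8 times in the other 9, where Epcam was at 0.262 to 9.54 CPM. The keratin pair and both epithelial lists were higher in each flox vehicle library than in every other library, and which cells gave the keratin reads was not tested. Krt19 varied little beside this, at 25.6 to 28.2 CPM in the same 3 libraries.

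**Figure D4:**
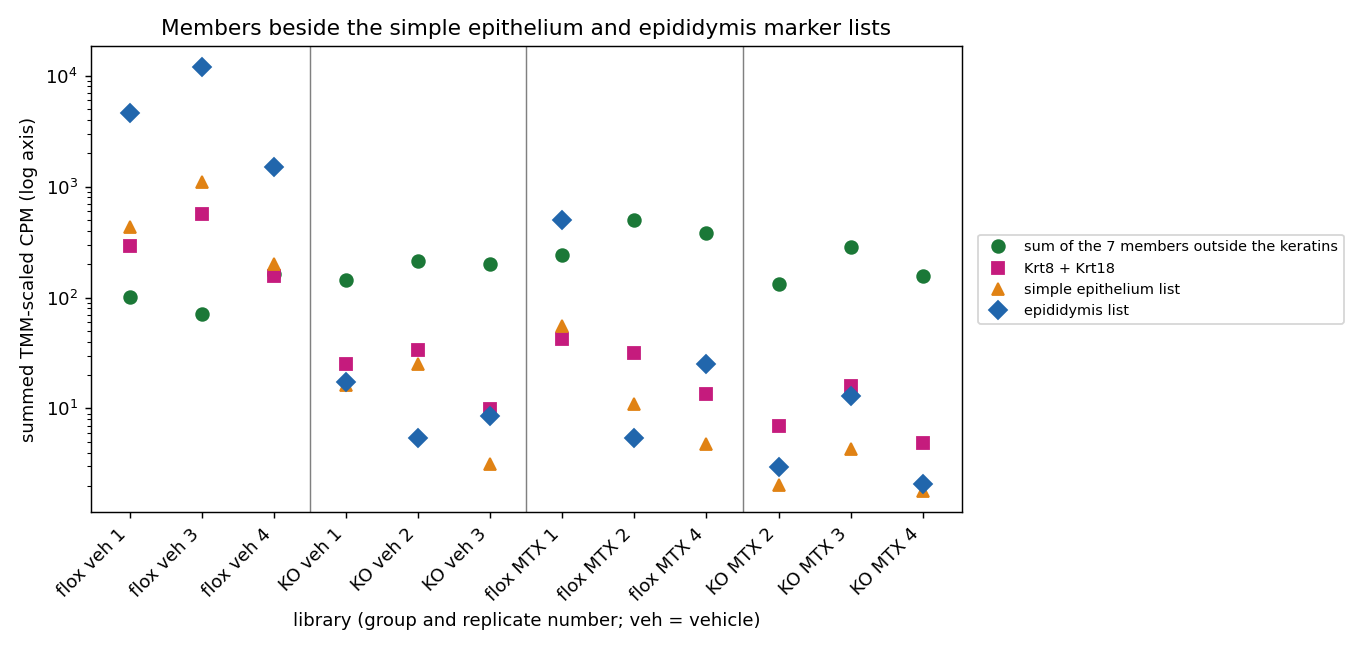
Summed TMM-scaled CPM per library on a log axis of the 7 members outside the keratins, of Krt8 and Krt18, of 10 simple epithelium markers and of 19 epididymis markers. The keratin pair and both epithelial lists are highest in the 3 flox vehicle libraries (156 to 572 CPM for the pair), where the sum of the 7 genes is 71.7 to 164 CPM.

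In KO mice MTX gave no call of any member. No gene at all passed in this comparison (0% of 18702 called by edgeR, 1491 or 7.97% at an unadjusted p below 0.05, 275 called by DESeq2). The log2 fold changes of the 7 genes outside the keratins ran from -0.36 for Msln to 0.32 for Muc16, and KO MTX and KO vehicle overlapped for all 10 members, where 20.7% of all genes had groups that did not. For Upk3b the change was 0.22 with a 95% interval from -0.52 to 0.96, so a rise of the size seen in flox mice (1.90) lay outside the interval. For Msln (-1.29 to 0.57), Gpm6a (-0.63 to 0.92), Lrrn4 (-0.65 to 1.03), Upk1b (-1.05 to 0.80), Wt1 (-0.94 to 1.23) and Muc16 (-0.72 to 1.36) the upper bound was likewise under the flox value. The flox values carry their own error. The 95% intervals of the 2 genotypes overlapped for Upk1b, Lrrn4, Wt1 and Muc16 and not for Upk3b, Msln and Gpm6a. The test of the difference is the interaction given below. Without KO MTX replicate 3 the changes of Upk3b, Wt1, Lrrn4, Gpm6a and Muc16 turned from above to below 0 (-0.25 to -0.11), with no call. The keratins were lower with MTX, Krt8 by 2.88-fold (-1.53 ± 0.62, unadjusted p = 0.0320 and adjusted p = 0.560, edgeR), Krt18 by 2.01-fold and Krt19 by 1.34-fold, and none passed. Without the 3 flox vehicle libraries in the fit these values changed little, with Krt8 at -1.54 and Upk3b at 0.22.

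The difference of the MTX effect between the genotypes was tested as an interaction. No member was called, against 0.989% of all genes (185, of which 17 were negative). At an unadjusted p below 0.05, 8 of 10 members passed, 6 of them negative, which held for 15% and 5.45% of all genes. Msln had the largest negative interaction, -2.14 ± 0.60 (SE, edgeR adjusted p = 0.151), followed by Muc16 at -1.74, Upk3b at -1.68 (adjusted p = 0.156), Gpm6a at -1.65, Upk1b at -1.58, Lrrn4 at -1.58 and Wt1 at -1.15. Krt18 (2.55, adjusted p = 0.240) and Krt8 (1.98, adjusted p = 0.310) were positive. DESeq2 called 5 members here, Msln (adjusted p = 0.0225), Upk3b (0.0347), Gpm6a (0.0550), Krt18 (0.0745) and Lrrn4 (0.0988), and 1232 genes in all. With edgeR, leaving out flox vehicle replicate 4 gave calls of Msln, Upk3b and Gpm6a, but among 1371 genes called in all, against 185 with all libraries. Leaving out flox MTX replicate 1 gave a call of Msln. The effect in flox mice thus passed the test and that in KO mice did not. The test of their difference did not pass with edgeR and did for 5 members with DESeq2. The interaction also rests on flox vehicle, and with edgeR 9 of 11 testis germ cell genes were called positive. The median log2 interaction was 2.38 for simple epithelium and 3.16 for epididymis genes, with none called. It was -1.27 for macrophage, -0.92 for stromal progenitor, -0.55 for endothelial and -0.49 for adipocyte genes, also with none called. The part of these differences in the members' interaction was not tested.

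Genotype under vehicle moved the members in unlike directions. Gpm6a was called higher in KO mice, and Krt8 and Krt18 were called lower, 3 of the 10 members, against 31.7% of all genes (13.9% higher and 17.8% lower), so the members were called no more often than genes in general. Gpm6a rose 2.06-fold (log2 fold change 1.05 ± 0.36 SE, edgeR adjusted p = 0.0490). Krt8 fell 12.8-fold (-3.67 ± 0.65, adjusted p = 0.00375) and Krt18 17.8-fold (-4.16 ± 0.71, adjusted p = 0.00348). All 7 genes outside the keratins had a log2 fold change above 0, as did 46.5% of all genes. Msln, at 1.98-fold (0.99 ± 0.43, adjusted p = 0.105), and Krt19, at 1.41-fold lower (-0.50 ± 0.21, adjusted p = 0.104), had groups that did not overlap but missed the limit. DESeq2 called Msln (0.97, adjusted p = 0.0795) and so 4 members, as did edgeR on the 6 libraries of the comparison alone (0.99, adjusted p = 0.0553) and without the filter on low counts (1.02, adjusted p = 0.0800). In all, 5 members had groups that did not overlap here, as did 48.1% of all genes. Lrrn4 was at 1.76-fold, Upk3b at 1.58-fold, Upk1b at 1.49-fold, Muc16 at 1.29-fold and Wt1 at 1.23-fold, with an adjusted p from 0.137 to 0.688.

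The count in this comparison depended on single libraries. The Gpm6a call was lost without flox vehicle replicate 1 (edgeR adjusted p = 0.152) or 3 (0.151) and without KO vehicle replicate 2 (0.131) or 3 (0.103), although its log2 fold change stayed between 0.84 and 1.56. Flox vehicle replicate 4 was the control library with the highest level of each of the 7 genes outside the keratins. Without it, Msln (1.41, edgeR adjusted p = 0.0396), Upk3b (0.98, adjusted p = 0.0622) and Lrrn4 (1.08, adjusted p = 0.0858) passed and 6 members were called. Msln also passed without flox MTX replicate 1, flox MTX replicate 2 or KO MTX replicate 3, and Lrrn4 without KO MTX replicate 3 or KO vehicle replicate 1. Krt19 passed without KO vehicle replicate 2 (-0.65, edgeR adjusted p = 0.0717). Wt1 turned to -0.0937 without flox vehicle replicate 3. Krt8 and Krt18 were called in each of these fits. KO vehicle libraries held 5.46 to 17.2 CPM of epididymis genes, 3.19 to 25.4 CPM of simple epithelium genes, 1.26 to 2.42 CPM of testis germ cell genes and 1.64 to 2.32 CPM of Sertoli cell genes, below flox vehicle in each case. Macrophage (3850 to 6125 CPM), stromal progenitor (5793 to 8960 CPM) and endothelial (726 to 1113 CPM) genes were above it and adipocyte genes (19079 to 31898 CPM) overlapped with it, and the part of these differences in the members' values was not tested.

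Genotype under MTX compared no flox vehicle library, although those libraries entered the filter, the scaling and the shared estimate of the spread. All 10 members were lower in KO MTX than in flox MTX, by 1.51-fold for Krt19 to 3.23-fold for Krt8, while 53.7% of all genes were lower, and the median log2 fold change was -1.01 for the members and -0.05 over all genes. No member passed with edgeR, and neither did any gene (0% of 18702), the smallest adjusted p of any gene being 0.104. At an unadjusted p below 0.05 and lower, 7 of 10 members passed, namely Upk3b, Muc16, Krt19, Krt8, Msln, Krt18 and Upk1b, against 12.9% of all genes. Upk3b was 2.03-fold lower (-1.02 ± 0.34 SE, edgeR adjusted p = 0.122), Muc16 2.58-fold (-1.37 ± 0.48, adjusted p = 0.129) and Msln 2.22-fold (-1.15 ± 0.43, adjusted p = 0.143). Only for Krt19 did the groups not overlap, which held for 26.8% of all genes, since KO MTX replicate 3 reached into the flox MTX range for the other 9.

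This comparison turned on the tool and on the libraries in the fit. DESeq2 called 6 members lower, Upk3b (adjusted p = 0.0396), Muc16 (0.0405), Krt8 (0.0411), Msln (0.0569), Krt18 (0.0676) and Krt19 (0.0740), among 2734 genes called in all. With edgeR, Upk3b passed when only genes with at least 10 counts in every library were tested (-1.03, adjusted p = 0.0982). It was the only member among 1491 of 14132 genes called in that fit. Muc16 passed without flox vehicle replicate 3 (-1.37, adjusted p = 0.0997), as the only member among 1028 genes called. Without the 3 flox vehicle libraries no member passed, with Muc16 at -1.38 (adjusted p = 0.105) and Upk3b at -1.03 (adjusted p = 0.107), while 899 genes did. Without these and flox MTX replicate 1, the 4 libraries with the highest epididymis sum, Muc16 (-1.70, adjusted p = 0.0847) and Msln (-1.48, adjusted p = 0.0951) passed, among 666 genes called in all. Without flox MTX replicate 2, 4064 genes were called but no member, and Msln moved to -0.66 and Wt1 to -0.35. The epididymis sum in KO MTX was 2.10 to 12.9 CPM, with 4 to 7 of 19 genes over 3 reads, and overlapped with flox MTX. The simple epithelium sum was 1.79 to 4.29 CPM with 3 to 5 of 10, below the 4.81 to 55.0 CPM of flox MTX. All 10 simple epithelium genes were lower in KO MTX, with a median log2 fold change of -3.45. Testis germ cell genes summed to 0.823 to 12.8 CPM, Sertoli cell genes to 0.953 to 2.26 CPM and endothelial genes to 478 to 886 CPM, overlapping with flox MTX in each case. Macrophage genes summed to 5368 to 8554 CPM in KO MTX, above flox MTX, stromal progenitor genes to 5987 to 7270 CPM, also above it, and adipocyte genes to 10205 to 25328 CPM, below it, and their part in the members' difference was not tested.

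**Figure D5:**
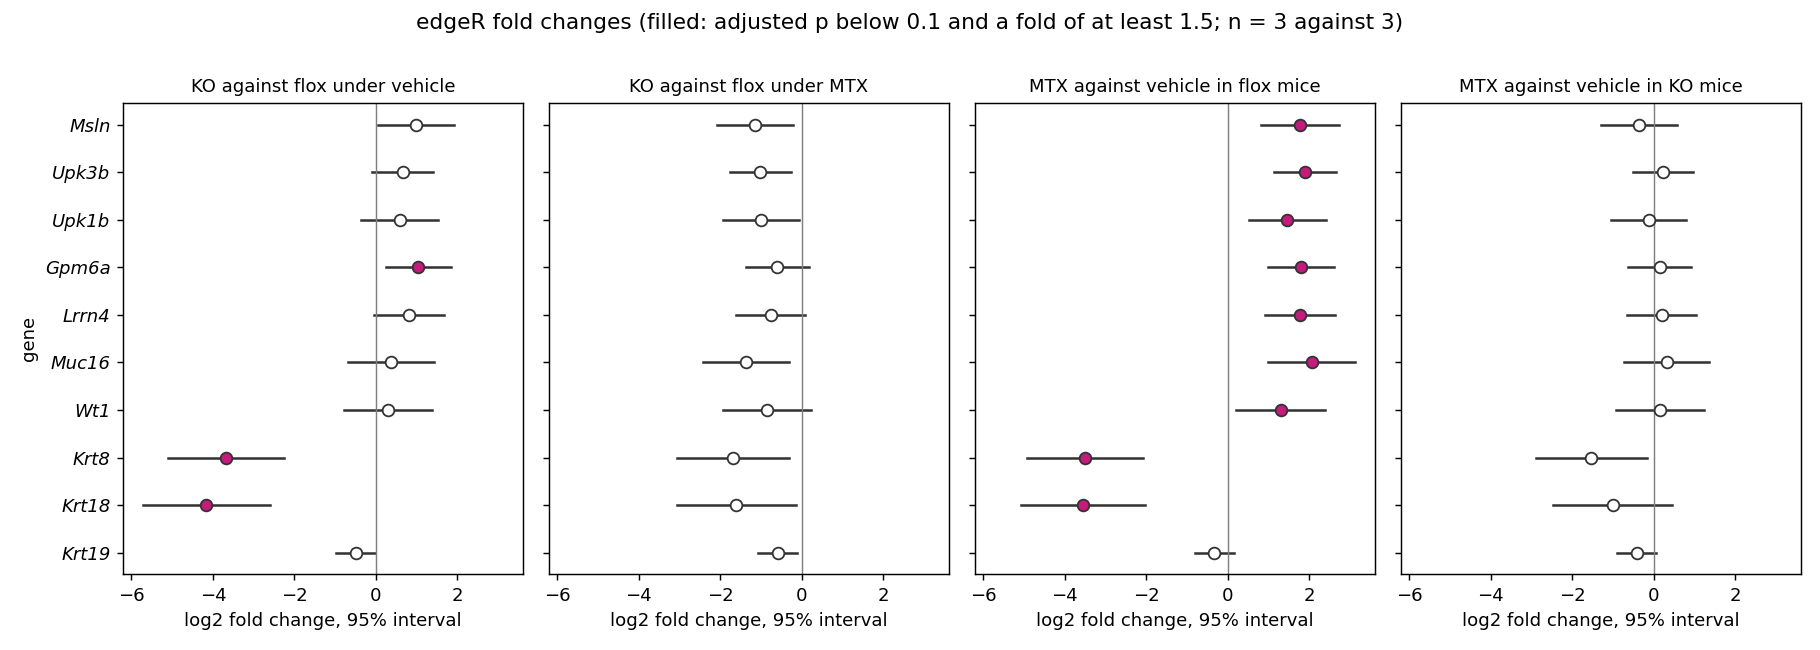
Log2 fold change with its 95% interval (edgeR, 3 libraries against 3) for each member in the 4 comparisons, filled where the adjusted p was below 0.1 and the fold at least 1.5. Filled points are 9 of 10 for MTX in flox mice, 3 of 10 for KO against flox under vehicle, and 0 of 10 in the other 2 comparisons, and under MTX all 10 points lie below 0.

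The comparisons share libraries, since flox vehicle served for genotype under vehicle and for MTX in flox mice, and flox MTX for the latter and for genotype under MTX. Their values are therefore not independent of each other. Set side by side, Upk3b was at 0.66 for KO under vehicle, 1.90 for MTX in flox mice, -1.02 for KO under MTX and 0.22 for MTX in KO mice. Krt8 was at -3.67, -3.51, -1.69 and -1.53 in the same order.

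Beyond the 10 members, 17 further genes known from mesothelium were looked at, of which 16 were tested and Calb2, the calretinin gene used as a mesothelial stain in human tissue, had at most 0.0504 CPM. With MTX in flox mice 8 of the 16 were called higher and none lower, where 8.09% of all genes were called higher and 16.1% lower. The smallest adjusted p among them belonged to Nkain4 (log2 fold change 1.88, edgeR adjusted p = 0.00573), Cldn15, a tight-junction claudin (0.89, adjusted p = 0.00795), and Slpi, a secreted protease inhibitor (3.22, adjusted p = 0.00816). The median over the 16 was 1.00, against 0.05 over all genes. By sign 13 of the 16 were above 0, as were 53.6% of all genes. The other 3 were Gata4 (-2.11, edgeR adjusted p = 0.128), Krt7 (-0.37) and Podxl (-0.36). Slpi was at 521 CPM in flox MTX replicate 2, against 109 and 124 CPM in replicates 1 and 4. In KO mice no gene of this list passed with MTX and 14 of 16 were below 0, as were 51.5% of all genes, and in KO against flox under MTX none passed and 12 of 16 were below 0, as were 53.7% of all genes. In KO against flox under vehicle 6 rose, including Cldn15 (1.17, adjusted p = 0.00284), and 2 fell, Krt7 and Gata4, where 13.9% of all genes rose and 17.8% fell.

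Relatives of the members in the same families moved in both directions. Of 11 such genes 7 were tested, and with MTX in flox mice Lrrn3 rose (1.43, edgeR adjusted p = 0.0370), while the uroplakin Upk1a fell (-4.03, adjusted p = 0.00643). Lrrn3 was low in all libraries, at 0.173 to 1.09 CPM, and Upk1a was at 1.78 to 17.5 CPM in flox vehicle and at most 0.635 CPM elsewhere. The bladder uroplakins Upk2, a partner of Upk1a, and Upk3a, a partner of Upk1b, were highest in flox vehicle replicate 4, at 2.95 and 6.28 CPM, and at most 0.275 CPM in the other 11 libraries. Gpm6b, the close relative of Gpm6a, did not pass in this comparison (0.29, adjusted p = 0.381). Of 12 further keratins 7 were tested, and Krt5 (-5.29, adjusted p = 0.0100) and Krt14 (-1.80, adjusted p = 0.0961), the pair of basal epithelial cells, fell, whereas Krt15 was lower without passing (-3.26, adjusted p = 0.109). Krt7, a keratin of mesothelium and of ducts, was at 14.1 to 26.6 CPM in flox vehicle and 9.21 to 24.2 CPM in flox MTX and did not pass.

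Genes of mesothelial-to-mesenchymal transition, in which mesothelial cells lose keratins and gain migratory features, were a list of 11, all tested. With MTX in flox mice 3 of them were called higher and none lower. They were Vim (vimentin, 0.88, edgeR adjusted p = 0.0349), Fn1 (fibronectin, 1.11, adjusted p = 0.0779) and the transcription factor Zeb2 (0.61, adjusted p = 0.0868). Of all genes 24.2% were called in this comparison, 8.09% as higher and 16.1% as lower. Snai1, which encodes a repressor that binds E-boxes, was not called in flox mice given MTX (0.69, adjusted p = 0.173). Snai1 rose in KO mice under vehicle (1.89, adjusted p = 0.00388), together with Vim, Fn1, Tgfb1 and Twist1, while Cdh2 fell. That is 5 of 11 higher and 1 lower, in a comparison that called 31.7% of all genes, 13.9% as higher and 17.8% as lower. Under MTX none of the 11 passed between the genotypes, and none passed with MTX in KO mice. Vim and Fn1 are also abundant in fibroblasts and macrophages. The summed macrophage and stromal progenitor markers were higher in KO vehicle than in flox vehicle, as given above. Between flox vehicle and flox MTX these sums overlapped only through flox MTX replicate 4, at 995 and 2616 CPM. With MTX in flox mice edgeR called 8 of 9 macrophage genes higher (median log2 fold change 2.04) and none lower. Of the stromal progenitor genes 5 of 10 were called higher (median 0.82) and none lower. Their part in the Vim and Fn1 values was not tested.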

How the data were processed

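RNA was isolated with TRIzol from eWAT for 12 libraries in 4 groups. The authors trimmed the reads (Trimmomatic 0.36), aligned them with STAR 2.5.2b to GRCm38, ran featureCounts (Subread 1.5.2) on Ensembl genes and deposited the read counts as whole numbers without normalization. Whether counting used strand, and what became of multi-mapping reads, are not given in the sources used here, and the labels name polyA RNA where the methods name ribodepletion. No exon of a member is shared with another gene of the table in GENCODE vM21, and Krt8 shares bases with Gm36026 on the other strand, which is not in the table.

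Tests on the counts used edgeR 4.0.16 under R 4.3.3 (quasi-likelihood test, filterByExpr by group, TMM scaling, all 12 libraries with 1 coefficient per group, Benjamini-Hochberg over 18702 genes). A call is an adjusted p below 0.1 with a fold of at least 1.5. DESeq2 1.42.0, other scalings and filters, other call limits, the replicate number as a block and each library left out were alternatives. The script was tested on simulated counts. Exact permutation tests over 3 against 3 libraries (two-sided, scipy 1.17.1) cannot go below p = 0.1. No 2 libraries of a group agreed within sampling noise, the lowest chi-square per degree of freedom being 14.1 over 12 pairs. CPM carry counting error that depth limits, on 19495310 to 23976469 counts per library. Labels name no batch.

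All 10 members are named, as are the 3 genes with the smallest adjusted p of each related list in the comparison with most members called, the most abundant gene of the lists of other cells, and the 10 genes with the highest Pearson correlation to the members' mean log2-CPM (prior count 2). A gene that this rule named is not reported here. Further genes were named after their values were seen. The members and lists were chosen with earlier results of these data known.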

Additional observations from a re-analysis of the deposited data

Results flagged for a closer look

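In 2 genes of the related lists the effect of MTX differed between the genotypes by the interaction test over all genes. They were 1 of 16 wider mesothelium genes and 1 of 7 family relatives tested, and 0 of 7 keratins and 0 of 11 transition genes were called. Of all genes 0.989% were called, and 0.0909% were called with a negative interaction. Cldn15, a tight-junction claudin of mesothelium and other epithelia, had an interaction of -1.08 on the log2 scale (edgeR adjusted p = 0.0970). It was at 30.9, 19.5 and 28.5 CPM in flox vehicle, 62.0, 63.8 and 51.3 CPM in KO vehicle, 53.2, 47.7 and 45.6 CPM in flox MTX and 50.1, 47.5 and 57.8 CPM in KO MTX, so the 3 flox vehicle libraries lay below the other 9. Lrrn3, a relative of Lrrn4, had an interaction of -2.77 (edgeR adjusted p = 0.0970), with group means of 0.350 CPM in flox vehicle, 0.563 in KO vehicle, 0.955 in flox MTX and 0.218 in KO MTX. These means rest on few reads. The flox vehicle libraries also held the high epididymis, simple epithelium and testis germ cell sums given above. No explanation of either interaction was tested.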

How the results depend on the processing

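For MTX in flox mice, 7 to 9 members were called with 1 library left out (9 in all), and no member changed direction under any alternative. KO against flox under vehicle gave 3 calls, 4 with DESeq2, without a filter or in its 6 libraries alone (Msln added), and 2 to 6 with 1 library left out, and Wt1 ran from -0.0937 to 0.82 there. KO against flox under MTX gave 0, but 6 with DESeq2, 1 under a minimum of 10 counts per library, 2 without the 4 libraries with the highest epididymis sum (chosen after seeing the data) and 0 to 1 with 1 library left out. The interaction gave 0, but 5 with DESeq2, 2 without a filter and 0 to 3 with 1 library left out, and Krt19 ran from -0.38 to 0.0785 and stood at 0.0742 when only library size was used for scaling. For MTX in KO mice, changes near 0 turned sign with 1 library left out: Upk3b ran from -0.17 to 0.45, Upk1b from -0.62 to 0.10, Wt1 from -0.25 to 0.34, Lrrn4 from -0.24 to 0.42, Gpm6a from -0.24 to 0.33 and Muc16 from -0.11 to 0.50. The cause was not tested. Library size as the only scaling moved the median log2 fold change of all genes from 0.05 to -0.15 for MTX in flox mice, from -0.05 to 0.12 for KO against flox under MTX and from -0.05 to 0.13 for the interaction.

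No pairing by replicate number was seen. Deviations of same-numbered libraries from their group means had a median r of 0.0353 over 12 pairs, 3 of them over 0.1. The 42 other pairs had a median r of 0.0112, 13 of them over 0.1. Deviations from means of 3 libraries cannot show that samples were unpaired. The methods name cage-matched littermates without tying them to the replicate numbers. With the replicate block 7 members were called for MTX in flox mice, Upk1b (adjusted p = 0.121, edgeR) and Wt1 (0.235) being lost, 4 for KO against flox under vehicle with Krt19 added (0.0923), and 0 elsewhere, and Gpm6a was -0.0788 for MTX in KO mice.

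All genes called for MTX in flox mice were 4528, and 2198 under that minimum of 10 counts, 2771 with the block, 2167 in its 6 libraries alone, 2791 at a log2 limit of 1.5 and 2219 to 5995 with 1 library left out. For KO against flox under vehicle they were 5924, and 3026 at that limit. Under MTX they were 0, and 2734 with DESeq2, 875 without a filter, 1491 under the minimum of 10 counts, 4 in its 6 libraries alone, 899 without the flox vehicle libraries, 666 without the 4 libraries named above and 0 to 4064 with 1 left out. For MTX in KO mice they were 0, and 275 with DESeq2, 20 without a filter, 3 in its 6 libraries alone and 0 to 215 with 1 left out. The interaction gave 185, and 1232 with DESeq2, 472 without a filter, 1 under the minimum of 10 counts, 0 with the block and 5 to 1371 with 1 left out.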
